A study of Mus musculus with 13 samples.

Results

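Serpina3n, A2m, Lcn2, Cp, Timp1, Cd44, Lgals3 and S100a6 encode acute-phase and injury-response proteins that are known from reactive Müller glia. They were taken by symbol from the array annotation, as the probe sets that name exactly 1 of these genes, which gave 1 probe set for each of the 8 genes among 19937 genes with such probe sets. RNA of the pooled retinae of 1 mouse was hybridized to 1 Affymetrix Mouse Gene 1.0 ST array, and 13 arrays were measured. KO dark (3 arrays) stands for PGC-1α knockout mice kept in darkness, WT dark (4 arrays) for wild type mice kept in darkness, KO light (3 arrays) for PGC-1α knockout mice after 2 h of bright white light, and WT light (3 arrays) for wild type mice after the same exposure. The knockout is global, so every cell of the body lacks the coactivator, and it is on a C57BL/6 background, with C57BL/6 NRj mice as wild type. The study's methods describe young adult animals, dark adapted overnight and with dilated pupils before the light. The methods place the analysis after a night of recovery in darkness, whereas the design text places removal of the eyes after the exposure, and the time at which the retinae of the arrays were taken is therefore not settled. The labels give female mice for the dark arrays other than WT dark replicate 4, and male mice for that array and for all light arrays, so that sex and light cannot be told apart in the groups compared.

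Müller glia span the retina from its inner to its outer border and respond to injury of any retinal cell with a programme called gliosis. Part of this programme is a local acute-phase response, in which cytokines of the interleukin-6 family act through gp130 and STAT3 and raise secreted protease inhibitors and metal-binding proteins. Surface receptors, lectins and calcium-binding proteins that shape contacts between cells rise in the same setting. Several of the 8 genes are also made by other cells: Cd44 and Lgals3 by macrophages, Lcn2 by neutrophils and Cp by pigment epithelium. The arrays measured RNA of the whole retina, in which a change in the number of cells and a change in RNA per cell cannot be told apart.

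The array labelled WT dark replicate 4 stood apart from its group and so did KO light replicate 3. Across genes, WT dark replicate 4 had a mean correlation of 0.989 with the other WT dark arrays and 0.995 with the KO light arrays, and KO light replicate 3 had 0.992 with the other KO light arrays and 0.996 with KO dark. Main values use the labels as given, without WT dark replicate 4, because the study describes 3 arrays per group. Its text does not name the arrays of each group, so the main values are not to be taken as the study's own grouping. Each KO light value is also given "with the exchanged arrays", that is, with WT dark replicate 4 standing in for KO light replicate 3. This exchange was proposed with the values of these arrays known, so its p-values describe that arrangement and are not independent support for it. The same holds for fits without KO light replicate 3, an array singled out with its values known. Median intensity was between 141.1 and 145.65 on the linear scale in the 13 arrays.

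**Figure D1:**
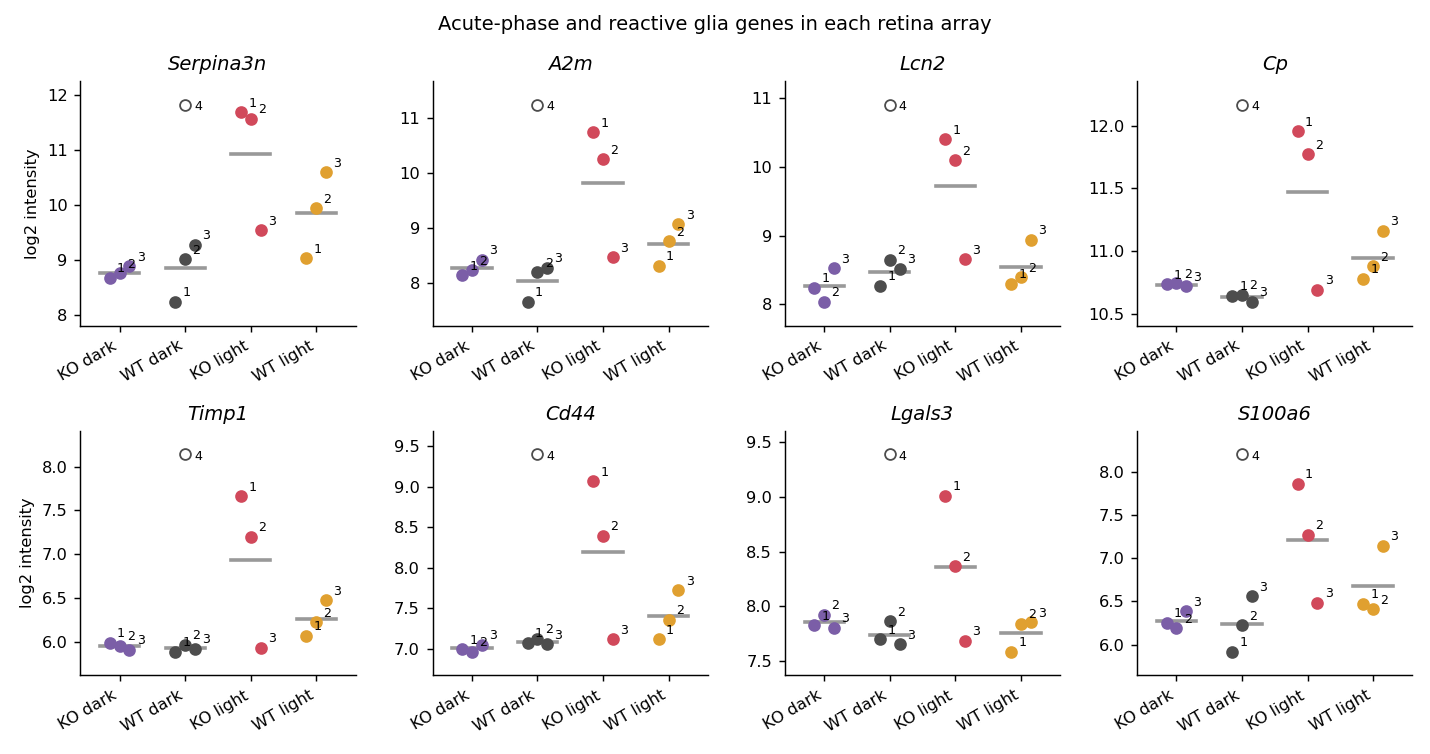
Log2 intensity (y axis, a scale of its own in each panel) of the 8 genes in each array, grouped on the x axis as labelled. Filled points are the arrays of the 12-array fit with their replicate numbers, the grey line is the mean of 3 arrays, and the open point is WT dark replicate 4. That open point is the highest of the 13 values in all 8 panels, and KO light replicate 3 lies below KO light replicates 1 and 2.

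Serpina3n, A2m and Timp1 encode inhibitors of proteases. Serpina3n (chromosome 12) encodes a secreted serpin that blocks serine proteases. Its log2 intensity was 8.67, 8.75 and 8.88 in KO dark and 8.23, 9.01 and 9.27 in WT dark. After light it was 11.69, 11.57 and 9.53 in KO light and 9.02, 9.93 and 10.60 in WT light. The array labelled WT dark replicate 4 had 11.82. KO light replicates 1 and 2 thus stood with WT dark replicate 4 above every other array, KO light replicate 3 lay between the dark arrays and the upper WT light arrays, and WT light spread from within the WT dark range to well above it. The mean of KO light was 10.93 ± 1.21 (SD, n = 3) as labelled and 11.69 ± 0.13 with the exchanged arrays, against 8.77 ± 0.11 in KO dark. The log2 difference between KO light and KO dark was 2.16 (95% interval 1.05 to 3.27, adjusted p = 0.135) as labelled and 2.92 (2.24 to 3.61, adjusted p = 5.1e-05) with the exchanged arrays.

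A2m (chromosome 6) encodes α2-macroglobulin, a large secreted trap for proteases of all classes. Log2 intensity was 8.14, 8.23 and 8.42 in KO dark, and 7.65, 8.19 and 8.27 in WT dark. It was 10.73, 10.24 and 8.46 in KO light, 8.31, 8.75 and 9.06 in WT light, and 11.23 in WT dark replicate 4. KO light replicate 3 exceeded the highest KO dark array only narrowly, and all WT light arrays lay above all WT dark arrays of the fit. KO light minus KO dark was 1.55 (95% interval 0.61 to 2.49, adjusted p = 0.175) as labelled and 2.47 (1.96 to 2.98, adjusted p = 2.26e-05) with the exchanged arrays.

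Timp1, on the X chromosome, encodes a secreted inhibitor of matrix metalloproteinases. The 6 dark arrays of the fit were close together, with 5.99, 5.96 and 5.91 in KO dark and 5.89, 5.97 and 5.93 in WT dark. KO light gave 7.66, 7.20 and 5.94, WT light 6.07, 6.23 and 6.48, and WT dark replicate 4 gave 8.14. KO light replicate 3 was inside the range of the dark arrays, and every WT light array was above that range. The log2 difference between KO light and KO dark was 0.98 (95% interval 0.31 to 1.64, adjusted p = 0.207) as labelled and 1.71 (1.35 to 2.08, adjusted p = 2.83e-05) with the exchanged arrays.

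Lcn2 and Cp encode proteins that handle iron. Lcn2 (chromosome 2) encodes lipocalin-2, which binds iron-carrying siderophores and is secreted in inflammation. Its log2 intensity was 8.24, 8.04 and 8.52 in KO dark and 8.27, 8.65 and 8.52 in WT dark. It was 10.41, 10.10 and 8.66 in KO light, 8.30, 8.39 and 8.94 in WT light, and 10.91 in WT dark replicate 4. KO light replicates 1 and 2 and WT dark replicate 4 were far above the rest, and WT light overlapped WT dark with 1 array above it. KO light minus KO dark was 1.45 (95% interval 0.70 to 2.21, adjusted p = 0.138) as labelled and 2.20 (1.76 to 2.64, adjusted p = 1.83e-05) with the exchanged arrays.

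Cp (chromosome 3) encodes ceruloplasmin, a copper-carrying ferroxidase that lets iron leave cells. KO dark arrays had 10.73, 10.74 and 10.72, and WT dark arrays had 10.64, 10.65 and 10.59. KO light had 11.96, 11.78 and 10.69, WT light 10.78, 10.88 and 11.16, and WT dark replicate 4 had 12.17. KO light replicate 3 lay below the 3 KO dark arrays, while every WT light array exceeded all 6 dark arrays of the fit. Within each dark group Cp had the smallest spread of the 8 genes (SD 0.012 in KO dark and 0.031 in WT dark, n = 3 each). The difference between KO light and KO dark was 0.74 (95% interval 0.23 to 1.26, adjusted p = 0.22) as labelled and 1.24 (1.02 to 1.45, adjusted p = 6.39e-06) with the exchanged arrays.

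Cd44, Lgals3 and S100a6 encode a surface receptor, a lectin and a calcium sensor. Cd44 (chromosome 2) encodes the main receptor for hyaluronan and sits on the microvilli of Müller glia. Its log2 intensity was 6.99, 6.97 and 7.05 in KO dark and 7.07, 7.12 and 7.06 in WT dark. It was 9.07, 8.40 and 7.12 in KO light, 7.12, 7.36 and 7.72 in WT light, and 9.40 in WT dark replicate 4. KO light replicate 3 and WT light replicate 1 had the same level, at the top of the WT dark range. KO light minus KO dark was 1.19 (95% interval 0.44 to 1.94, adjusted p = 0.186) as labelled and 1.95 (1.53 to 2.38, adjusted p = 3.11e-05) with the exchanged arrays.

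Lgals3 (chromosome 14) encodes galectin-3, a lectin for β-galactosides that is abundant in phagocytes. Values were 7.83, 7.92 and 7.81 in KO dark and 7.70, 7.86 and 7.66 in WT dark. KO light had 9.01, 8.37 and 7.68, WT light 7.59, 7.84 and 7.85, and WT dark replicate 4 had 9.39. Among the 8 genes it was the only one whose 3 WT light arrays all stayed below the highest dark array of the fit, and KO light replicate 3 lay under every KO dark array. The log2 difference between KO light and KO dark was 0.50 (95% interval -0.0016 to 1.01, adjusted p = 0.36) as labelled and 1.07 (0.68 to 1.46, adjusted p = 0.0012) with the exchanged arrays.

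S100a6 (chromosome 3) encodes calcyclin, a small calcium-binding protein of the S100 family. Log2 intensity was 6.25, 6.19 and 6.39 in KO dark, and 5.92, 6.23 and 6.56 in WT dark. It was 7.86, 7.27 and 6.48 in KO light, 6.47, 6.41 and 7.14 in WT light, and 8.20 in WT dark replicate 4. KO light replicate 3 and WT light replicates 1 and 2 lay inside the WT dark range. KO light minus KO dark was 0.93 (95% interval 0.30 to 1.56, adjusted p = 0.206) as labelled and 1.50 (1.00 to 2.00, adjusted p = 0.00062) with the exchanged arrays.

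The order of the arrays was nearly the same for all 8 genes. WT dark replicate 4 had the highest value of 13 arrays, KO light replicate 1 the next and KO light replicate 2 the one after for 8 of 8 genes. WT light replicate 3 followed for 7 of 8, Lgals3 being the exception. Relative to the mean of the 6 dark arrays of the fit, the median over the 8 genes was 2.28 in WT dark replicate 4, 1.87 in KO light replicate 1 and 1.31 in KO light replicate 2 on the log2 scale. It was 0.15 in KO light replicate 3, and 0.12, 0.24 and 0.62 in WT light replicates 1 to 3. WT dark replicate 4 and KO light replicates 1 and 2 each exceeded all 6 dark arrays in 8 of 8 genes, where 27.2%, 22.3% and 26.9% of all genes did so. KO light replicate 3 did so in Serpina3n, A2m and Lcn2 (17.2% of all genes), and WT light replicate 1 in Cp and Timp1 (25.6%). WT light replicate 2 did so in 5 genes (23.6%) and WT light replicate 3 in 7 (29.4%). As fold over the mean of the dark arrays, Serpina3n reached 8.09 in WT dark replicate 4 and 7.37 in KO light replicate 1 but 1.66 in KO light replicate 3, and Lgals3 reached 3.02, 2.32 and 0.925 in the same arrays. The exposed WT retinae thus differed among themselves in Serpina3n, from 1.16-fold to 3.46-fold, where the 6 dark arrays ran from 0.674-fold to 1.385-fold. For Lgals3 they ran from 0.864-fold to 1.04-fold, a spread about as wide as that of the 6 dark arrays (0.907-fold to 1.093-fold).

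**Figure D2:**
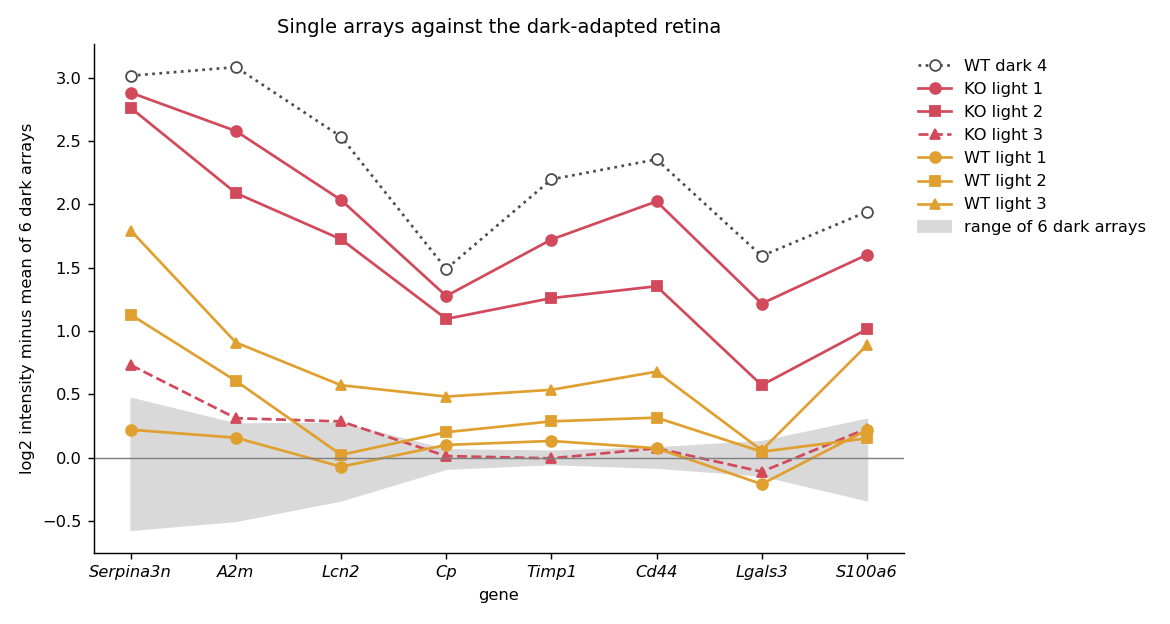
Log2 intensity of each gene (x axis) minus its mean over the 6 dark arrays of the fit (y axis), with 1 line per array and the range of those dark arrays in grey. KO light replicates 1 and 2 and WT dark replicate 4 run in parallel above all others, with medians between 1.31 and 2.28, while KO light replicate 3 stays near the dark range from Cp to S100a6.

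Whether light exposure changed the 8 genes in KO retina was tested between KO light and KO dark. All 8 genes had higher means in KO light, with log2 differences between 0.50 and 2.16 and a median of 1.08, against a median of -0.0033 over all genes. A gene counted as called when its Benjamini-Hochberg adjusted p over the 19937 genes (limma) was below 0.05 and its ratio was no smaller than 1.2 or no larger than 0.87. None of the 8 was called, and 0.1% of all genes were. At an unadjusted p under 0.05, 7 of 8 genes passed (not Lgals3), where 2.95% of all genes were higher at that p with the same limits on the ratio, and with variances that were not moderated none was called. KO light and KO dark did not overlap for Serpina3n, A2m, Lcn2, Cd44 and S100a6, 5 of 8 genes, where 6.44% of all genes were higher without overlap. With the exchanged arrays all 8 genes were called higher and none overlapped, where 7.01% of all genes were called higher and 20.0% did not overlap. On leaving KO light replicate 3 out with no other array in its place, all 8 were called, at log2 differences from 0.84 (Lgals3) to 2.86 (Serpina3n), where 5.68% of all genes were called higher. Since this array was singled out with its values known, these calls are not independent support.

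The corresponding test in WT retina compared WT light with WT dark. Serpina3n had the largest difference of the 8 genes, 1.01 (95% interval -0.10 to 2.12, adjusted p = 0.338), followed by A2m with 0.67 (-0.27 to 1.61, adjusted p = 0.454). S100a6 had 0.44, Timp1 0.33, Cd44 0.32, Cp 0.31, Lcn2 0.07 and Lgals3 0.02. No gene of the 8 was called by limma, at an unadjusted p under 0.05 or with variances that were not moderated, and 0.431% of all genes were called. A2m, Cp and Timp1 were higher in WT light without overlap, as were 17.5% of all genes. The interval for Lcn2 was -0.68 to 0.82 and that for Lgals3 -0.48 to 0.52. The exchange leaves the arrays of both WT groups as they are and narrows only the estimate of the spread that the groups share. None of the 8 genes was called then either, where 4.41% of all genes were, 3 of 8 were higher at an unadjusted p under 0.05 (2.75% of all genes), and the adjusted p was 0.0711 for Serpina3n, 0.0714 for Cp and 0.105 for A2m. Without KO light replicate 3, Cp was called at an adjusted p of 0.0438, where 2.13% of all genes were called higher.

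KO and WT retinae were compared after light. As labelled, the means of all 8 genes were higher in KO light, by 0.53 (S100a6 and Cp) to 1.17 (Lcn2) on the log2 scale. None was called by limma or with variances that were not moderated, where 0.176% of all genes were, and 6 of 8 passed an unadjusted p under 0.05, where 1.79% of all genes did so in the higher direction. The 3 KO light arrays overlapped the 3 WT light arrays for all 8 genes, where 5.63% of all genes were higher without overlap. All 8 were called higher on leaving out KO light replicate 3, at log2 differences from 0.89 (S100a6) to 1.78 (A2m and Serpina3n), where 3.21% of all genes were. All 8 genes were called higher in KO light with the exchanged arrays (4.56% of all genes) and none overlapped (13.9% of all genes). The log2 differences were then 2.03 for A2m (95% interval 1.52 to 2.54, adjusted p = 0.000294), 1.92 for Lcn2 (1.48 to 2.36, adjusted p = 0.000186) and 1.84 for Serpina3n (1.16 to 2.52, adjusted p = 0.00249). They were 1.56 for Cd44, 1.41 for Timp1, 1.16 for Lgals3, 1.10 for S100a6 and 1.03 for Cp. This comparison shares the KO light arrays with that between KO light and KO dark.

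No difference between the genotypes was detected in these genes in darkness. The log2 difference between KO dark and WT dark ran from -0.21 (Lcn2, 95% interval -0.96 to 0.54) to 0.22 (A2m, -0.72 to 1.16). None was called by limma, at an unadjusted p under 0.05 or without moderated variances, where 0.0752% of all genes were called. KO dark lay above WT dark without overlap for Cp (9.26% of all genes) and below it for Cd44 (7.45%), with log2 differences of 0.10 and -0.08. With WT dark replicate 4 counted as a WT dark array, all 8 genes had lower means in KO dark, at log2 differences from -0.82 (Serpina3n and Lcn2) to -0.28 (Cp), and none was called.

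Whether the light responses of KO and WT retina differed was tested by the interaction of genotype and light, the difference in KO retina less that in WT retina. As labelled it was positive for all 8 genes, from 0.43 (Cp) to 1.38 (Lcn2), and no gene passed, with 0.0602% of all genes passing. Lcn2 alone passed an unadjusted p under 0.05 (interval 0.32 to 2.45, adjusted p = 0.581), where 2.82% of all genes did in the positive direction, and none passed without moderated variances. With the exchanged arrays 7 of 8 passed in the positive direction, where 2.0% of all genes did. The interaction was then 2.13 for Lcn2 (adjusted p = 0.00313), 1.91 for Serpina3n (adjusted p = 0.0401), 1.05 for Lgals3 (adjusted p = 0.049) and 1.06 for S100a6, which missed the threshold (95% interval 0.35 to 1.77, adjusted p = 0.112). Without KO light replicate 3, A2m, Lcn2, Cp, Timp1 and Cd44 passed and the other 3 did not, where 1.03% of all genes passed in this direction.

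**Figure D3:**
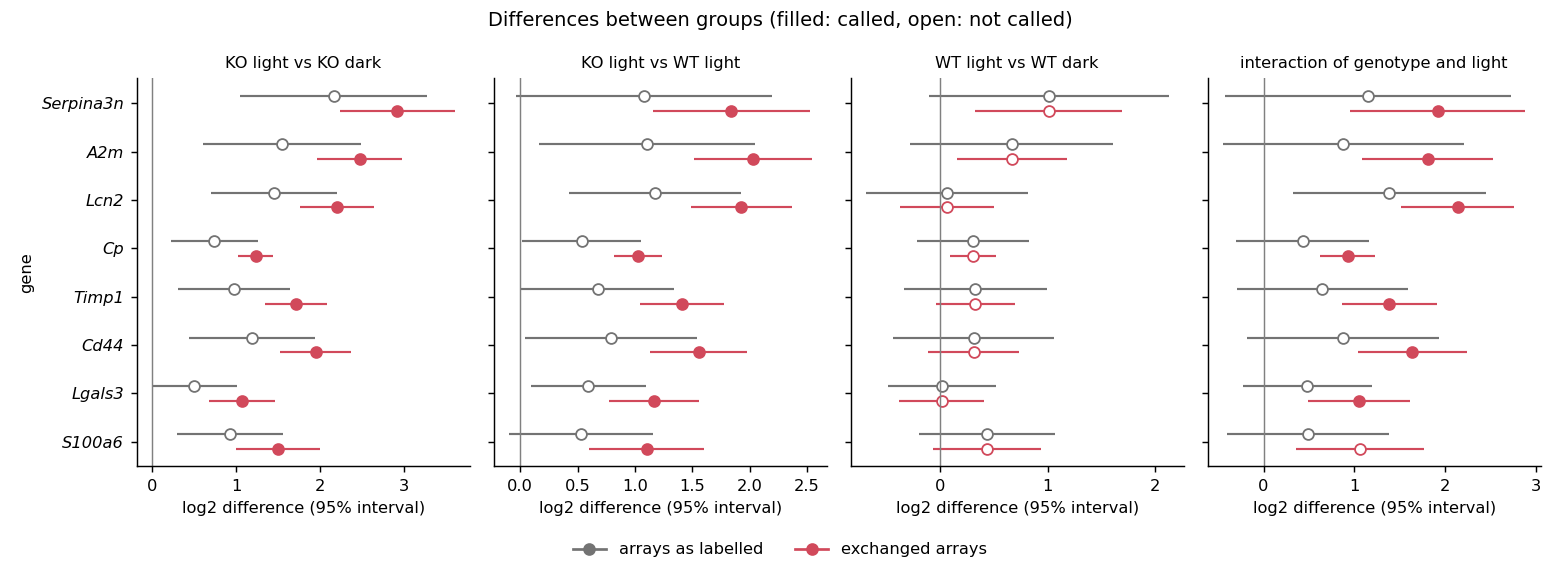
Log2 differences (x axes) of the 8 genes (y axis) in 4 comparisons, with 95% intervals from limma. Grey stands for the arrays as labelled and red for the exchanged arrays, and filled points were called. All grey points are open, and the red points are filled throughout for KO light vs KO dark and KO light vs WT light, open throughout for WT light vs WT dark, and open only for S100a6 in the interaction.

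In mean level, KO light came first for 8 of 8 genes under both arrangements. WT light came second for 7 of 8, and KO dark was second for Lgals3. As labelled, KO light and the group below it overlapped in every gene. The second group overlapped the next except for Cp, Timp1 and S100a6, where WT light lay above KO dark. The share of all genes for that pair was not computed, so these gaps are a description only. For S100a6 the lowest WT light array had 6.41 and the highest KO dark array 6.39, and WT light overlapped WT dark. With the exchanged arrays the first 2 groups did not overlap in any of the 8 genes. Of all genes, 13.9% were then higher in KO light than in WT light without overlap, and 20.0% higher than in KO dark. The dark groups, which had the lowest means in 7 of 8 genes, overlapped except in Cp and Cd44. Of all genes, 9.26% were higher and 7.45% lower in KO dark than in WT dark without overlap.

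Over the 13 arrays, pairs of the 8 genes had Pearson correlations from 0.827 (Serpina3n and Lgals3) to 0.996 (Timp1 and Cd44), with a median of 0.961. The 3 arrays with the highest values were the same for all 8 genes, and the correlations are given as a description. Among genes outside the list, Plxnd1 (r = 0.992), a semaphorin receptor, Tnnt2 (r = 0.991), a troponin of heart muscle, and Axl (r = 0.99), a receptor tyrosine kinase, were most like the mean profile of the 8 genes. Pdpn, Rfx2, Gadd45b, Dock1, Skap2, Lrrc2 and Clic1 followed, down to 0.986. Axl had between 7.84 and 8.13 in the 6 dark arrays of the fit, 9.54, 9.11 and 8.02 in KO light, 8.18, 8.27 and 8.42 in WT light, and 9.79 in WT dark replicate 4. By gene, the most alike were Tgm1 for Serpina3n, Axl for A2m, Septin8 for Lcn2, Plxnd1 for Cp, Dock1 for both Timp1 and Cd44, Il33 for Lgals3 and Tirap for S100a6, with r from 0.98 to 0.997.

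Since the 8 genes were high in the same arrays, their promoters were read for short motifs of factors known from the acute-phase response. RefSeq promoters of the mouse assembly GRCm38.p6, each of 300 bases from 250 before to 50 after a start site, were held for 7 of the 8 genes in 8 entries, Cp having 2. Both strands were searched for 5 motifs, those of STAT, NF-kB, C/EBP and AP-1 and the TATA box, with the letters of each stated beside its result. The 3 printed here, 5′ to 3′ on the strand of the gene, are those with a match to the NF-kB, C/EBP or AP-1 letters, and capitals mark the match.
Serpina3n, chr12:104406458-104406757, plus strand: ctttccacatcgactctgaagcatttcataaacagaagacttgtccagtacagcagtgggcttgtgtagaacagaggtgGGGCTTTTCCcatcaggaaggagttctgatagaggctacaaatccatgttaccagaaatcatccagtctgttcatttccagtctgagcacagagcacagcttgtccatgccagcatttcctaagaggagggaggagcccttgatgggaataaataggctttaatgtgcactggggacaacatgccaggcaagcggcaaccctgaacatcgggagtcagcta
Lcn2, chr2:32387690-32387989, minus strand: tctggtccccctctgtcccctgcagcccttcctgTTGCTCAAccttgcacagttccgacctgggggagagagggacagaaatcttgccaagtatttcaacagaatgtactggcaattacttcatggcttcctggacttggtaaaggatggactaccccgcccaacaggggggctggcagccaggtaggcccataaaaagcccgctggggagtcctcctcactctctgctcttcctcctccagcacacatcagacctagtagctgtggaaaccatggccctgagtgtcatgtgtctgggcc
Cp, chr3:19956804-19957103, plus strand: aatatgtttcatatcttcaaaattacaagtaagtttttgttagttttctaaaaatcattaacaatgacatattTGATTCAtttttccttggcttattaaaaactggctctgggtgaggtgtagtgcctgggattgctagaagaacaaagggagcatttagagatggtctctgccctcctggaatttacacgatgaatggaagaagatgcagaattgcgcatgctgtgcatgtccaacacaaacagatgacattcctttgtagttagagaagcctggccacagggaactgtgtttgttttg
For NF-kB the search was for 3 G, any 2 bases, 2 T, any base and 2 C, and Serpina3n held it as GGGCTTTTCC from 171 to 162 bases before the start site, as 4.79% of 32851 promoters held some match. The C/EBP search used TTGNGCAA, which Lcn2 held on the strand opposite to the gene, 216 to 209 bases before the start, and which was in 2.94% of promoters. Searched as TGANTCA, the AP-1 motif was in 7.81% of promoters and lay 177 to 171 bases before the start in the first entry of Cp. The second entry of Cp held the TATA letters, TATAAA, on both strands in overlapping matches, as did 13.6% of promoters on either strand. STAT was searched as TTCNNNGAA, which was in 8.3% of promoters and in none of the 8 entries. Timp1, Cd44, Lgals3 and S100a6 held no match to the letters of any of the 5 motifs. Variants that depart from these letters were not searched, so sites of these factors may have been missed. NF-kB, C/EBP, AP-1 and TATA were thus each found in 1 of the 7 genes with a sequence. With so few sequences, single matches cannot be told apart from the shares over all promoters. No promoter sequence was held for A2m, so its motifs were not read.

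Other genes of the same responses were read from lists that were chosen with earlier results of these data known. Of 27 measured genes among other acute-phase and reactive glia genes, none was called as labelled between KO light and KO dark (median log2 difference 0.54). At an unadjusted p under 0.05, 17 were higher, where 2.95% of all genes were. With the exchanged arrays 19 of the 27 rose and none fell, where 7.01% of all genes were called higher and 6.3% lower. The median was 0.92 against -0.014 over all genes. Gfap, the intermediate filament of astrocytes and gliotic Müller cells, rose by 2.39 (SE 0.19), Osmr, the receptor for oncostatin M, by 2.05 (SE 0.15), Fgf2, a growth factor that protects photoreceptors, by 2.02 (SE 0.13) and Edn2, an endothelin made by stressed photoreceptors, by 1.79 (SE 0.20). The 8 not called included the hepatic acute-phase genes Hp, Hpx, Orm1, Itih3 and Itih4, between -0.18 and -0.03. The others were Aspg with -0.08, Saa3 with 0.09 and Cebpb with 0.10. In WT light against WT dark none was called as labelled. With the narrower spread of the exchanged fit 7 rose and none fell, where 424 of 19937 genes were called higher. Gfap rose by 1.27 (SE 0.19, adjusted p = 0.00233), Osmr by 0.68 and Fgf2 by 0.50. Some of these genes thus passed the test in WT retina under a fit in which none of the 8 genes of the list did. Serpina3n missed the threshold there although its difference of 1.01 was larger than those of Osmr and Fgf2. Whether the lists differed in their response was not tested. The interaction was positive and passed for 12 of the 27 with the exchanged arrays, where 2.0% of all genes passed in this direction. Fgf2 with 1.52 and Edn2 with 1.53 were among the 12.

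**Figure D4:**
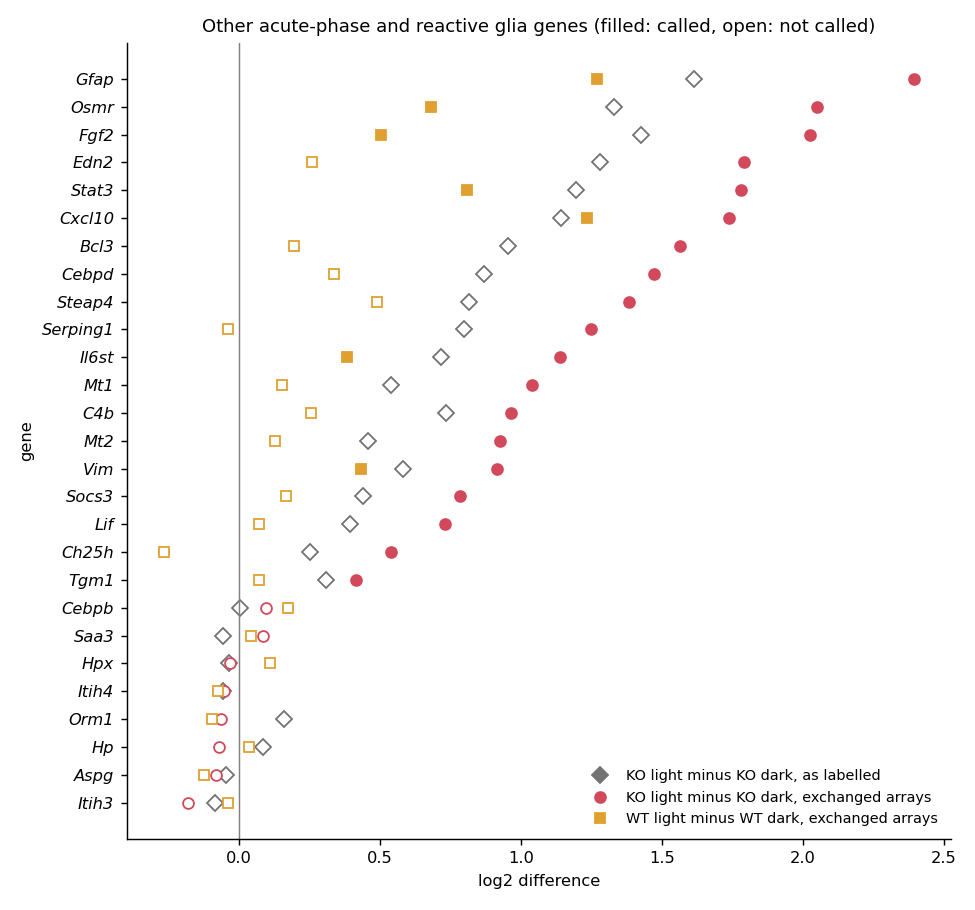
Log2 differences (x axis) of 27 other acute-phase and reactive glia genes (y axis), ordered by KO light minus KO dark with the exchanged arrays (red circles). Grey diamonds give the same difference as labelled and yellow squares WT light minus WT dark in the exchanged fit, and filled symbols were called. 19 red circles and 7 yellow squares are filled, and no grey diamond is.

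Further lists hold partners and paralogues of the 8 proteins. Between KO light and KO dark no gene of these 4 lists was called as labelled. At an unadjusted p under 0.05, 2 iron handling genes, 3 proteases, inhibitors and receptors, 2 hyaluronan and CD44 partners and 4 paralogues were higher and 1 paralogue was lower. Of all 19937 genes, 589 were higher and 503 lower at that p. The counts that follow are for the exchanged arrays, where 7.01% of all genes were called higher and 6.3% lower. Of 11 iron handling genes 4 rose and none fell: Hmox1, which breaks down heme, by 0.88, Ftl1, the ferritin light chain, by 0.58, Slc11a2, an importer of iron, by 0.31 and Tfrc, the transferrin receptor, by 0.29. Transferrin itself, measured as Trf, was not counted among these 11. It rose by more than any of them and is given with the plasma protein genes below. Of 17 proteases, inhibitors and receptors 8 rose and none fell, led by Cd63, a tetraspanin that binds Timp1, with 1.65, Timp3 with 0.51, the membrane metalloproteinase Mmp14 with 0.49 and the lysosomal protease Ctsd with 0.43. Mmp14 was the only one of them called as labelled between KO light and WT light, with 0.47 (SE 0.07, adjusted p = 0.0225). Of 12 hyaluronan and CD44 partners 4 rose, Msn, which links Cd44 to actin, by 1.49, Tnfaip6, a hyaluronan-binding protein, by 0.46, Fn1, encoding fibronectin, by 0.35 and Ezr, a relative of Msn, by 0.31. Vcan, a proteoglycan that binds hyaluronan, fell by 0.70 in WT light against WT dark as labelled (SE 0.13, adjusted p = 0.0445).

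Among 27 measured paralogues of the 8 genes, 5 rose and 1 fell with the exchanged arrays. S100a10 rose by 1.42, S100a16 by 1.10 (SE 0.10), S100a11 by 1.09 (SE 0.13), Lgals1 by 0.76 and S100a1 by 0.49, whereas Lgals12 fell by 0.56. The median of the paralogues was -0.022. The closest relatives of Serpina3n (Serpina3c, Serpina3f, Serpina3g, Serpina3i, Serpina3j, Serpina3k and Serpina3m) had no probe set with a single symbol and were not analysed here, so a share of their RNA in the Serpina3n value was not tested.

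Markers of the cell types of the retina moved in part with the 8 genes, and their part in the result was not tested. With the arrays as labelled no marker of any cell type list was called between KO light and KO dark. At an unadjusted p under 0.05, 2 Müller glia, 2 astrocyte, 3 microglia and 3 endothelial markers were higher, and 2 Müller glia and 3 rod markers were lower. Of all 19937 genes, 589 were higher and 503 lower at that p. Of 14 Müller glia markers 5 were called with the exchanged arrays, where 7.01% of all genes were called higher and 6.3% lower. Crym, a thyroid hormone binding protein, rose by 1.84, Clu, encoding clusterin, by 0.59 and Slc1a3, a glutamate transporter, by 0.34, while Glul, encoding glutamine synthetase, fell by 0.65 and Abca8a, a lipid transporter, fell by 0.59. The mean log2 level of the 14 markers was 10.15 to 10.18 in KO dark and 10.08 to 10.15 in WT dark. It was 10.13 to 10.37 in KO light, 10.16 to 10.19 in WT light and 10.27 in WT dark replicate 4. With the exchanged arrays 8 of the 14 were higher by mean and 6 lower, with a median log2 difference of 0.063. Of 8 astrocyte markers, which share Gfap, Slc1a3, Aqp4 and S100b with the lists above, 3 rose and none fell, among them Aldh1l1 with 1.35. By mean, 5 of the 8 were higher and 3 lower, with a median of 0.18. The list's mean was 7.77 to 7.81 in KO dark and 7.67 to 7.79 in WT dark. It was 7.79 to 7.93 in WT light and 7.74 to 8.37 in KO light, with 8.30 in WT dark replicate 4.

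The next counts are for KO light against KO dark with the exchanged arrays, where 7.01% of all genes were called higher and 6.3% lower. Of 14 microglia and macrophage markers 5 rose, among them Cd68, a lysosomal protein, by 0.88 and Lyz2, encoding lysozyme, by 0.69. The others were the complement genes C1qb by 0.54 and C1qa by 0.31, and the adaptor Tyrobp by 0.31. P2ry12, a receptor of resting microglia, fell by 0.26. The mean of this list was 6.78 to 6.88 in KO dark, 6.79 to 6.86 in WT dark, 6.82 to 7.03 in KO light, 6.78 to 6.85 in WT light and 7.06 in WT dark replicate 4. Of 11 neutrophil markers none rose and Camp fell by 0.20, and their mean stayed between 5.11 and 5.25 in all groups. Of 8 endothelial markers 3 rose, Kdr by 0.80, Cldn5 by 0.49 and Eng by 0.42, with means of 7.54 to 7.59 in KO dark, 7.67 to 7.69 in WT dark, 7.69 to 7.74 in WT light and 7.70 to 7.88 in KO light. Trf, encoding transferrin, rose by 1.56 and was the only one of 9 liver and plasma protein genes that was called, their mean lying between 6.12 and 6.31 in all groups.

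None of 10 pigment epithelium markers and none of 9 lens and anterior eye markers was called between KO light and KO dark under either arrangement. At an unadjusted p under 0.05, 2 pigment epithelium markers were higher as labelled and 1 lens marker was lower with the exchanged arrays. Of all 19937 genes, 589 were higher as labelled and 1500 lower with the exchanged arrays at that p. Pigment epithelium markers had a mean of 7.51 to 8.24 in KO dark, 7.75 to 7.99 in WT dark, 6.92 to 7.66 in WT light and 7.54 to 8.27 in KO light, and Best1, a chloride channel of these cells, fell by 0.30 in WT light against WT dark as labelled (SE 0.06, adjusted p = 0.0478). Between KO light and WT light none of the 10 was called as labelled, with a median log2 difference of 0.25. At an unadjusted p under 0.05, 4 of them were higher, where 1.79% of all genes were. The exchanged arrays gave 3 of 10 called higher and none lower, with a median of 0.46, where 4.56% of all genes were called higher. These 3 were the pigmentation genes Dct with 1.91 (SE 0.50), Tyrp1 with 1.71 (SE 0.39) and Pmel with 0.99 (SE 0.29), named after their values were seen. All 3 were highest in KO light replicate 2, at 10.55, 10.30 and 9.16, against 7.81, 8.16 and 7.59 in KO light replicate 1. By mean, 8 of the 10 markers were higher and 2, Rpe65 and Lrat, were lower. The part of these markers in the higher values of the 8 genes in KO light than in WT light was not tested. Between KO light and KO dark, 4 of 9 rod markers fell with the exchanged arrays, where 6.3% of all genes were called lower. These were the transcription factor Nrl by 0.67, phosducin (Pdc) by 0.41, the channel subunit Cnga1 by 0.40 and the phosphodiesterase subunit Pde6b by 0.31. The mean of the rod markers was 12.20 to 12.23 in KO dark, 12.21 to 12.28 in WT dark, 11.93 to 12.16 in KO light, 12.23 to 12.31 in WT light and 11.88 in WT dark replicate 4.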

How the data were processed

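RNA of mouse retina was measured on 13 Affymetrix Mouse Gene 1.0 ST arrays, 1 per mouse. For the extraction the labels name Trizol and the methods a different kit, and the methods speak of male mice only. The authors deposited linear intensities per probe set, levelled between arrays, and their processing notes name Partek. Their summarization, normalization, filters and genome build were not given in the sources used here. Signal over background is unknown for lack of background values, and the number of arrays limits the precision.

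Intensities were taken to log2 here, without an offset, and the deposited probe sets with exactly 1 gene symbol (21640 of 34760, with 1321 carrying several and 11799 none) were averaged per gene, which gave 19937 genes. A RefSeq table of GRCm38.p6, matched by gene ID for 21553 of these probe sets, served for names and chromosomes. limma 3.58.1 in R 4.3.3 fitted 1 model of 4 groups to 12 arrays with moderated variances (8 residual degrees of freedom), and WT dark replicate 4 was left out. Benjamini-Hochberg adjustment ran over all 19937 genes. Calls needed an adjusted p below 0.05 together with a ratio no smaller than 1.2 or no larger than 0.87, and for the interaction the adjusted p alone. The smallest p of an exact test with 3 arrays on each side is 0.1. Each animal was a biological replicate by the labels. Scripts were tested on simulated data.

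The genes described were the 8 in full, up to 4 called genes with the largest difference per list in KO light vs KO dark, as labelled and with the exchanged arrays, and the genes most alike over 13 arrays (10 for the mean profile, 3 per gene). Any other gene named was picked with its values in view. The 8 genes and the lists were chosen with earlier results of these data known. Of the listed genes, 19 were not found by symbol among the genes with such probe sets and were not counted in their lists. Tf was among them, since transferrin was measured here under the symbol Trf. Alternatives were the exchanged arrays, all 13 arrays, each array left out, variances not moderated, quantile normalization, dim genes left out, an offset of 32, fits of the compared groups only, the brightest probe set per gene and replicate number as a block.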

Additional observations from a re-analysis of the deposited data

Results flagged for a closer look

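WT dark replicate 4 lay far from the other 3 arrays labelled WT dark in 5 of the 8 genes. Its gap to the nearest array, as a share of the range of the 4 arrays, was 0.857 for Lcn2, 0.963 for Cp, 0.966 for Timp1, 0.972 for Cd44 and 0.88 for Lgals3, each above Dixon's 95% critical value for 4 arrays. The share was 0.71 for Serpina3n, 0.827 for A2m and 0.719 for S100a6, which is below that value. Chance puts about 1 group in 20 past this value, and 12.3% of all genes in the same 4 arrays were past it at either end.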

How the results depend on the processing

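The 8 genes and 5 comparisons give 40 log2 differences, which were recomputed under 21 alternatives, 12 of them with 1 array left out, as 832 values in all. Direction and side of the threshold were kept in 765 of these, 45 passed the threshold where the value as labelled did not, and 22 changed sign. All 45 came from the exchanged arrays (23) and from leaving out KO light replicate 3 (22). The interaction has no value when only the compared groups were fitted.

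With the exchanged arrays 8 genes of the list were called in KO light vs KO dark, 8 in KO light vs WT light and 7 in the interaction, and over all genes 2653 in KO light vs KO dark, then 880 in WT light vs WT dark, 1640 in KO light vs WT light, 175 in KO dark vs WT dark and 555 in the interaction. On leaving out 1 array, the count of the 8 genes called ran from 0 to 8 in KO light vs KO dark and in KO light vs WT light, from 0 to 1 in WT light vs WT dark and from 0 to 5 in the interaction, with every count above 0 from leaving out KO light replicate 3. The counts over all genes ran from 4 to 1981, 9 to 857, 1 to 1045, 1 to 170 and 1 to 263 in the order given above, the highest each time without KO light replicate 3.

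The other alternatives called none of the 8 genes in any comparison. Over all genes they gave, where the count moved by over 1.5 times, in KO light vs KO dark 0 with 13 arrays, 10 without moderated variances, 46 with quantile normalization, 49 without dim genes, 35 with the offset of 32 and 4 with only the compared groups fitted. In WT light vs WT dark these were 22 with 13 arrays, 18 without moderated variances, 175 without dim genes, 158 with the offset and 680 with only the compared groups fitted. In KO light vs WT light they were 12 with 13 arrays, 5 without moderated variances, 55 with quantile normalization, 54 with the offset and 0 with only the compared groups fitted. In KO dark vs WT dark they were 9 with 13 arrays, 4 without moderated variances, 27 with the offset and 144 with only the compared groups fitted, and in the interaction 7 with 13 arrays and 1 without moderated variances. The cause was not tested.

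Sign changes fell on differences that were not called. With 13 arrays, WT light vs WT dark became -0.13 (A2m), -0.54 (Lcn2), -0.074 (Cp), -0.22 (Timp1), -0.26 (Cd44), -0.39 (Lgals3) and -0.051 (S100a6), and KO dark vs WT dark became -0.58 (A2m), -0.28 (Cp), -0.53 (Timp1), -0.30 (Lgals3) and -0.45 (S100a6), since WT dark replicate 4 then enters the WT dark mean. With quantile normalization Lgals3 became -0.0034 in WT light vs WT dark. On leaving out 1 array, WT light vs WT dark ran from -0.13 to 0.19 for Lcn2 and from -0.026 to 0.11 for Lgals3, and KO dark vs WT dark from -0.38 to 0.14 for Serpina3n and from -0.12 to 0.20 for S100a6.

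Replicate numbers do not pair the arrays, since each array is a different mouse and deviations of same-numbered arrays had correlations from -0.19 to 0.22. With replicate number as a block none of the 8 genes was called, and over all genes 11 were called in KO light vs KO dark, then 17 in WT light vs WT dark, 11 in KO light vs WT light, 13 in KO dark vs WT dark and 3 in the interaction.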
